A study of Homo sapiens with 4 samples.

Results

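The genes described here are 42 genes of DNA replication and S phase, chosen by name with earlier results of these data known. They include the licensing factors of replication origins, the replicative helicase and its activators, and the DNA polymerases. Also among them are the sliding clamp and its loader, the nucleotide-supply enzymes and a few regulators of S phase. All 42 had a probe set with 1 gene symbol among the 18417 genes that did, and a gene with several probe sets was represented by the brightest. Of the 42, 41 lay above the limit for dim probe sets and were tested among 14147 genes. The exception was POLD3, an accessory subunit of DNA polymerase delta, which read 3.30 and 3.22 after anti-miR-191 and 3.13 and 3.25 in controls, under the limit of 3.41.

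RNA was profiled from HepG2, an established human hepatocellular carcinoma cell line, transfected either with anti-miR-191, an antisense inhibitor of the microRNA miR-191, or with anti-miR-NC (negative control). The experiment was carried out on 2 occasions described as independent studies, each with 1 treated and 1 control array. All 4 cultures received an oligonucleotide with the same lipid reagent, so the comparison is between oligonucleotides and not with untransfected cells. The labels name no oligonucleotide sequence, dose or time of treatment. Both groups are 1 cell line, and a line has no variation between donors. Values are RMA intensities on the log2 scale, and a change is anti-miR-191 minus control on that scale. It is given as the mean of both experiments ± limma's moderated SE (n = 2 arrays per group). That SE borrows variance from all genes tested, so it is not a gene's own spread over the 2 experiments. The words rose and fell are used only for genes past an adjusted p of 0.05 in limma's fit with the experiment as a block.

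DNA replication begins when the origin recognition complex, CDC6 and CDT1 load the ring-shaped MCM2 to MCM7 helicase onto DNA in G1, a step called licensing. In S phase CDC7 kinase, CDC45, MCM10 and the GINS complex turn the loaded ring into a moving helicase, and primase and the polymerases alpha, delta and epsilon copy both strands behind it. RFC loads the PCNA clamp, RPA covers single-stranded DNA, FEN1 and LIG1 join Okazaki fragments, and ribonucleotide reductase and thymidylate synthase supply deoxynucleotides. Transcription of many of these genes is driven by E2F factors when cells leave G1.

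MIR191 gives rise to both mature strands below, printed as RefSeq lists them for GRCh38.p14 with the seed, bases 2 to 8, in capitals, because the inhibitor is directed at this microRNA. The labels do not say which strand it binds.
hsa-miR-191-5p: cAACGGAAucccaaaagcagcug
hsa-miR-191-3p: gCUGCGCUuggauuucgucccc

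Of the replication genes, ORC6 and SLBP had higher and CDT1 had lower transcript levels after anti-miR-191, and the other 38 tested did not pass the threshold. The 3 called genes are 7.32% of the 41, against 13.9% of all genes tested. In the higher direction 2 of 41 members were called (4.88%), against 10.1% of all genes, and in the lower direction 1 of 41 (2.44%), against 3.77%. Without the block, limma called none of the 41, against 3.91% of all genes. At an unadjusted p under 0.05 that fit had 5 of the 41, and 3048 of all 14147. The whole set had a median change of 0.02, with -0.02 in experiment 1 and 0.03 in experiment 2, beside 0.01 over all genes tested. In bulk RNA, fewer cells in S phase and less of a transcript per cell cannot be told apart.

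**Figure D1:**
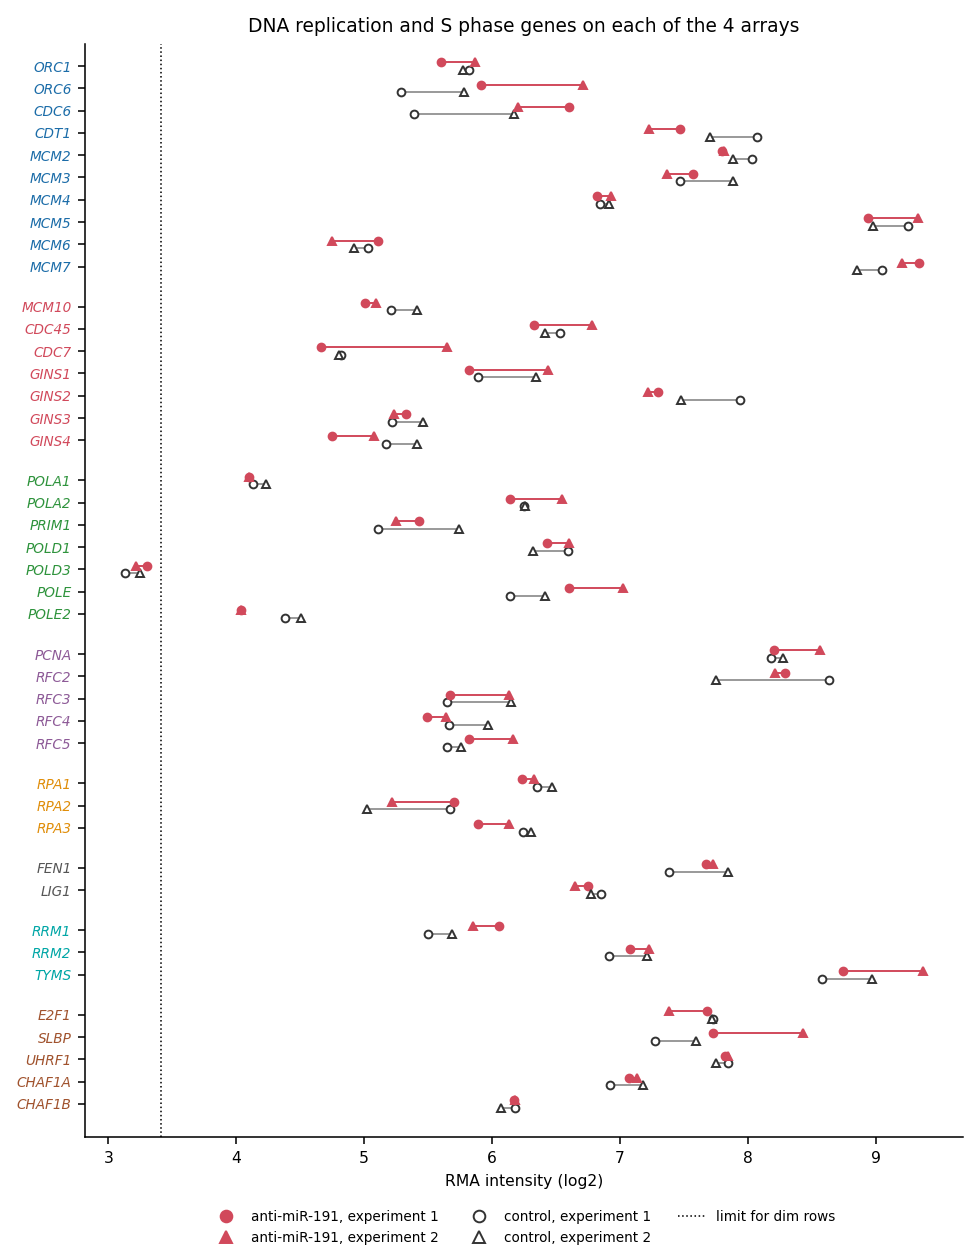
Log2 RMA intensity (horizontal axis) of the 42 replication genes, grouped by role and coloured by group, on each array. Filled red symbols are anti-miR-191 arrays and open symbols controls, circles experiment 1 and triangles experiment 2, and the dotted line is the limit of 3.41 for dim probe sets. For ORC6 and SLBP both filled symbols lie to the right of both open ones, for CDT1 both lie to the left, and for most other genes the groups overlap or differ little. Levels of different probe sets cannot be compared with each other.

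ORC6 encodes the smallest subunit of the origin recognition complex. It read 5.91 and 6.71 after anti-miR-191 in experiments 1 and 2, and 5.29 and 5.78 in the controls. Both treated arrays lay above both controls. It rose 1.72-fold (0.78 ± 0.15), with changes of 0.63 and 0.94 and limma's adjusted p = 0.017, and kept its call in the 7 alternative settings with the block. Without the block its adjusted p was 0.203.

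SLBP encodes the stem-loop binding protein, which binds the ends of replication-dependent histone mRNAs and is needed for their processing and translation in S phase. Its levels were 7.73 and 8.43 after anti-miR-191 and 7.27 and 7.59 in controls, again with no overlap between groups. SLBP rose 1.56-fold (0.65 ± 0.16, changes of 0.46 and 0.83, limma's adjusted p = 0.0352). Its call was lost after quantile normalization (adjusted p = 0.0914), cyclic loess (0.0521) and without the block (0.219).

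CDT1 encodes the licensing factor that delivers the MCM ring to origins. It read 7.47 and 7.23 after anti-miR-191 and 8.07 and 7.70 in controls, so both treated arrays were below both controls. CDT1 fell by 0.54 ± 0.15, a 1.45-fold difference, with changes of -0.60 and -0.47 and limma's adjusted p = 0.0492, only just under the threshold. In 5 of 8 alternative settings it missed the threshold, with adjusted p between 0.0507 and 0.168.

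Just outside the threshold stood POLE, the catalytic subunit of polymerase epsilon, which extends the leading strand. POLE read 6.60 and 7.02 after anti-miR-191 and 6.14 and 6.41 in controls, with no overlap. Its change was 0.53 ± 0.15 with limma's adjusted p = 0.051, and with dim probe sets kept its adjusted p was 0.043. After POLE the closest were GINS2 (0.111) and POLE2 (0.114), both with negative changes. At an unadjusted p under 0.05 the same limma fit had 8 of the 41 genes, 4 higher and 4 lower, against 28.1% of all genes.

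The promoters of the genes that rose or fell, and of POLE, GINS2 and E2F1, are printed to show what precedes their annotated starts. POLE2, next after GINS2 by adjusted p, is not printed. Each is the 250 bases before the start, 5′ to 3′ on the gene's strand, from RefSeq for GRCh38.p14, with any match to the E2F motif (TTTCCCGC, TTTCGCGC, TTTGCCGC or TTTGGCGC, either strand) in capitals.
ORC6 promoter, chr16:46689409-46689658, plus strand: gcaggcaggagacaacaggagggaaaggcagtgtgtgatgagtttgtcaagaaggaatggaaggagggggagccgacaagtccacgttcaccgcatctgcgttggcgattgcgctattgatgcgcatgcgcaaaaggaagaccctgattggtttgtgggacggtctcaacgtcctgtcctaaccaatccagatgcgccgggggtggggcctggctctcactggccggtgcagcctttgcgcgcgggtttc
SLBP promoter, chr4:1712320-1712569, minus strand: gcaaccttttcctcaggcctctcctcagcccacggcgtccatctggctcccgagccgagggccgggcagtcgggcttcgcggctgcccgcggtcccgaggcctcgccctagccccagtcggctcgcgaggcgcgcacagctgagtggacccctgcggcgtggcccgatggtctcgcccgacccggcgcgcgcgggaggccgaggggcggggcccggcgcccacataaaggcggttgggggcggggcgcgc
POLE promoter, chr12:132687343-132687592, minus strand: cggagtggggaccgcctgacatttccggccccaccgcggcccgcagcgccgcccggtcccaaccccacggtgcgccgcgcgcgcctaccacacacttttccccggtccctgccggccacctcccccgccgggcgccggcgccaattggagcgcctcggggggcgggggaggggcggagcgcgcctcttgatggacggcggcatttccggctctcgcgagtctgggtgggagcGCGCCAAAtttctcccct
CDT1 promoter, chr16:88803539-88803788, plus strand: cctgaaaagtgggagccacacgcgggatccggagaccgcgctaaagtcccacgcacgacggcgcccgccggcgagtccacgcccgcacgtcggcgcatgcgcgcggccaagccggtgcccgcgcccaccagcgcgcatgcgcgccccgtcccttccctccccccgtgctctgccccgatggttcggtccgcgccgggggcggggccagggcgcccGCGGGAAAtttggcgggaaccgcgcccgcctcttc
GINS2 promoter, chr16:85688955-85689204, minus strand: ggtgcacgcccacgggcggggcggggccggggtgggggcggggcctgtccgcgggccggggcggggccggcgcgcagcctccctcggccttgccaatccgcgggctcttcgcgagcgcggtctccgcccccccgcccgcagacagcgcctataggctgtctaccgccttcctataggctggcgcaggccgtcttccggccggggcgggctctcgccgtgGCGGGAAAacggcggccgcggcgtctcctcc
E2F1 promoter, chr20:33686386-33686635, minus strand: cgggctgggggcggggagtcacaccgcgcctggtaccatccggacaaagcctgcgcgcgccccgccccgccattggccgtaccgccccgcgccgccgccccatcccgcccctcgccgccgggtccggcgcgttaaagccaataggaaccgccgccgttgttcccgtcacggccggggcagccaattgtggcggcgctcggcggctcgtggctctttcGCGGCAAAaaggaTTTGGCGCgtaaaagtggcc

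An E2F motif stood in this window for 15 of the 36 replication genes that the promoter table listed (41.7%), beside 5.04% of the 11054 tested genes that it listed and 2.79% of all 35116 windows. CCAAT, read on both strands, was present for 21 of the 36 (58.3%), beside 39.8% of tested genes and 32.0% of windows. The E-box CACGTG was present for 5 of 36 (13.9%), beside 10.8% of tested genes and 6.34% of windows. A gene with several annotated starts was counted when any window held the motif, so the shares per gene and per window differ. These are matches of letters, not sites shown to be bound. No entry was used for MCM4, MCM5, GINS4, POLD3, RPA2 and RPA3.

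The changes of genes with and without the E2F motif overlapped. Members with an E2F motif had a median change of 0.00 (n = 15, from -0.54 to 0.53) and those without it 0.05 (n = 21, from -0.41 to 0.78), a comparison given as a description. CDT1 and GINS2, with negative changes, each carried 1 match, at positions -35 to -28 and -31 to -24 from the start. POLE2, with a change of -0.41, held no E2F match. POLE, with a positive change, carried 1 match at positions -18 to -11. E2F1 carried 2 and had a change of -0.19. ORC6 and SLBP, which rose, held no E2F match in this window, and ORC6 held 2 CCAAT matches.

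**Figure D2:**
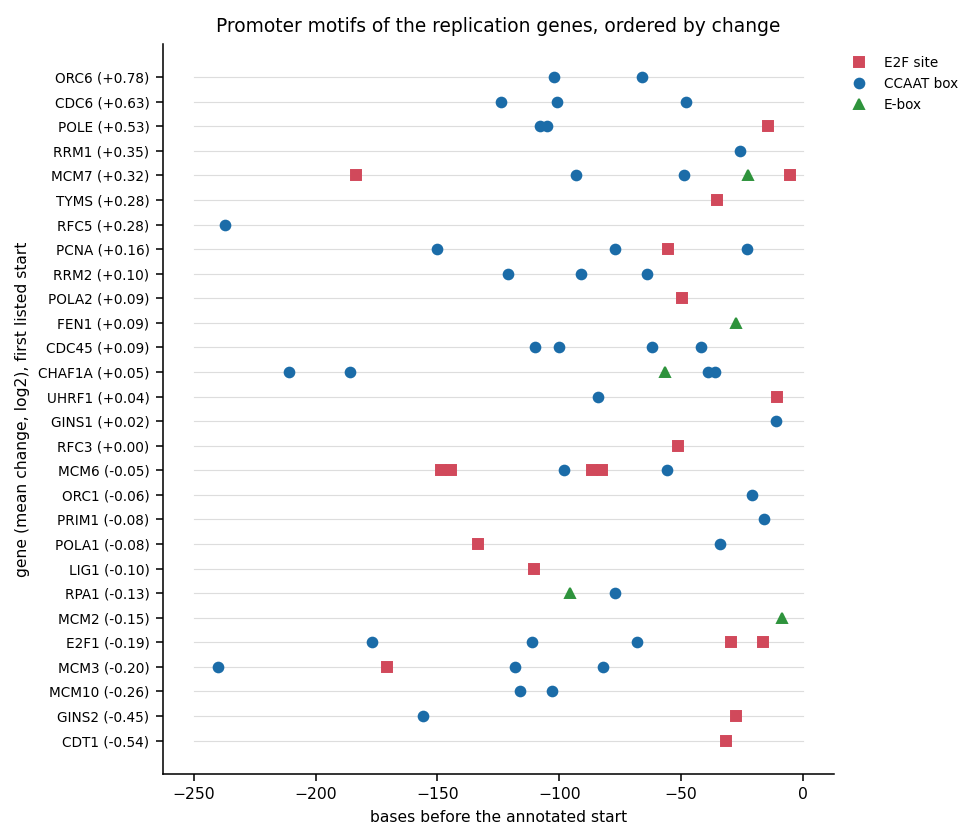
Positions of motif matches in the bases before the first listed start (horizontal axis, bases) for replication genes with any match in that window, ordered from the highest mean change (top) to the lowest (in parentheses, log2). Red squares are E2F motifs, blue circles CCAAT and green triangles the E-box. E2F matches occur from POLE, at 0.53, down to CDT1, at -0.54.

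The origin licensing genes, 10 of the set, had a median change of -0.03 (0.03 in each experiment taken alone). Of these 1 gene was called higher and 1 lower (20%, beside 13.9% of all genes tested). Calls in groups of 10 or fewer genes cannot rank the groups, and differences between groups were not tested. Besides ORC6 and CDT1, the helicase subunits MCM2 to MCM7 were measured together, and none passed. Their mean changes ran from -0.20 for MCM3 to 0.32 for MCM7. MCM4 read 6.82 and 6.93 after anti-miR-191 and 6.84 and 6.91 in controls, a change of 0.00 ± 0.14 with a 95% interval from -0.34 to 0.33. MCM2 read 7.80 and 7.81 against 8.03 and 7.88, a change of -0.15 ± 0.15 (limma's adjusted p = 0.57). MCM7 read 9.34 and 9.20 against 9.05 and 8.85, with both treated arrays above both controls and changes of 0.29 and 0.35, but its adjusted p was 0.204. MCM5 changed by -0.31 in experiment 1 and 0.35 in experiment 2, and MCM3 by 0.11 and -0.50, so the sign for these subunits differed between the experiments. ORC1, the largest subunit of the recognition complex, had a change of -0.06 ± 0.16.

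CDC6, the ATPase that acts with the origin recognition complex in loading MCM, had the third largest mean change of the 41 and the largest disagreement between experiments. It read 6.60 and 6.20 after anti-miR-191 and 5.39 and 6.17 in controls. The control of experiment 1 was low beside the other 3 arrays, and the changes were 1.22 and 0.04. The mean change of 0.63 ± 0.26 did not pass (limma's adjusted p = 0.159, 95% interval from 0.03 to 1.23).

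Of the 7 genes of helicase activation and firing none passed. The median of their mean changes was -0.06, and the medians in experiments 1 and 2 taken alone were -0.19 and -0.23. GINS2, a subunit of the GINS complex that joins MCM and CDC45 in the active helicase, read 7.30 and 7.22 after anti-miR-191 and 7.94 and 7.48 in controls. Both treated arrays lay below both controls, and the change was -0.45 ± 0.16 (limma's adjusted p = 0.111). GINS4 also had no overlap, at 4.75 and 5.08 against 5.17 and 5.41, with a change of -0.37 ± 0.14 (adjusted p = 0.137). GINS1 read 5.82 and 6.44 against 5.89 and 6.34, a change of 0.02 ± 0.15, and GINS3 had a change of -0.06 ± 0.16. MCM10, which helps the helicase to start, had a change of -0.26 ± 0.15. CDC7, the kinase that fires licensed origins, read 4.66 and 5.65 after anti-miR-191 against 4.82 and 4.80, so only the treated array of experiment 2 was high. CDC45 changed by -0.20 and 0.37 in experiments 1 and 2.

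The polymerase genes had a median change of -0.01 over the 6 tested, and none passed. Polymerase epsilon's 2 subunits in the set differed in sign. POLE, with the values above, was higher on both treated arrays, whereas POLE2, its accessory subunit, read 4.04 and 4.04 after anti-miR-191 and 4.38 and 4.51 in controls (-0.41 ± 0.15, limma's adjusted p = 0.114). Neither passed, and their difference was not tested. POLD1, the catalytic subunit of polymerase delta, read 6.43 and 6.60 against 6.59 and 6.32 (0.06 ± 0.16). POLA1 and POLA2 of polymerase alpha had changes of -0.08 ± 0.14 and 0.09 ± 0.16. PRIM1, the catalytic subunit of primase, changed by 0.32 in experiment 1 and -0.49 in experiment 2.

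Clamp and clamp loader genes had a median change of 0.07 over 5 genes, with 0.02 in experiment 1 and 0.29 in experiment 2, and none passed. PCNA, the clamp itself, read 8.20 and 8.56 after anti-miR-191 and 8.18 and 8.27 in controls, which overlap. Its change was 0.16 ± 0.15, with a 95% interval from -0.20 to 0.51. RFC3 had the smallest change of the loader subunits, with levels of 5.67 and 6.13 against 5.65 and 6.15 (0.00 ± 0.14). RFC5 had the largest, 5.82 and 6.16 against 5.65 and 5.76 (0.28 ± 0.15, limma's adjusted p = 0.272). RFC4 read lower on both treated arrays (-0.25 ± 0.15). RFC2 read 8.63 and 7.75 in the controls, a gap wider than the range of its treated arrays, 8.29 and 8.21.

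The single-strand binding genes had a median change of -0.13. RPA3, the smallest RPA subunit, read 5.89 and 6.13 after anti-miR-191 and 6.24 and 6.30 in controls (-0.26 ± 0.15). RPA1, the largest, had changes of -0.12 and -0.13, and RPA2 had 0.03 and 0.20. RPA2 separated by experiment rather than by treatment, at 5.70 and 5.67 in experiment 1 and 5.22 and 5.02 in experiment 2. For joining Okazaki fragments, the nuclease FEN1 read 7.67 and 7.73 against 7.38 and 7.84 (0.09 ± 0.16), and the ligase LIG1 read 6.75 and 6.65 against 6.85 and 6.77 (-0.10 ± 0.14).

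The 3 nucleotide supply genes were each higher in both experiments, with a median change of 0.28 (0.17 and 0.16 in experiments 1 and 2), but none passed. Over all genes tested, 36.5% were higher in both experiments. Nucleotide supply genes outside the set went both ways: DTYMK and TK1 fell and RRM2B rose, as described below. Listed beside them, DUT (-0.24), DCK (0.16) and SAMHD1 (-0.11), named after their values were seen, did not pass. RRM1, the large subunit of ribonucleotide reductase, read 6.05 and 5.85 after anti-miR-191 and 5.50 and 5.69 in controls, with no overlap (0.35 ± 0.16, limma's adjusted p = 0.201). RRM2, its small subunit, read 7.08 and 7.23 against 6.91 and 7.21 (0.10 ± 0.15). TYMS, thymidylate synthase, read 8.74 and 9.37 against 8.58 and 8.97 (0.28 ± 0.15, adjusted p = 0.278). TYMS was higher in experiment 2 than in experiment 1 in both groups. A median over 3 genes rests on few values, and the difference from the licensing, polymerase and clamp groups was not tested.

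Among the 5 S phase regulators and chromatin assembly genes SLBP alone passed, and the median change was 0.05. E2F1, the transcription factor that activates many replication genes, read 7.68 and 7.38 after anti-miR-191 and 7.73 and 7.72 in controls (-0.19 ± 0.15, limma's adjusted p = 0.47). UHRF1, which guides maintenance DNA methylation to newly copied DNA, read 7.82 and 7.84 against 7.84 and 7.75 (0.04 ± 0.15). The chromatin assembly factor subunits CHAF1A and CHAF1B both had changes of 0.05 ± 0.15.

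**Figure D3:**
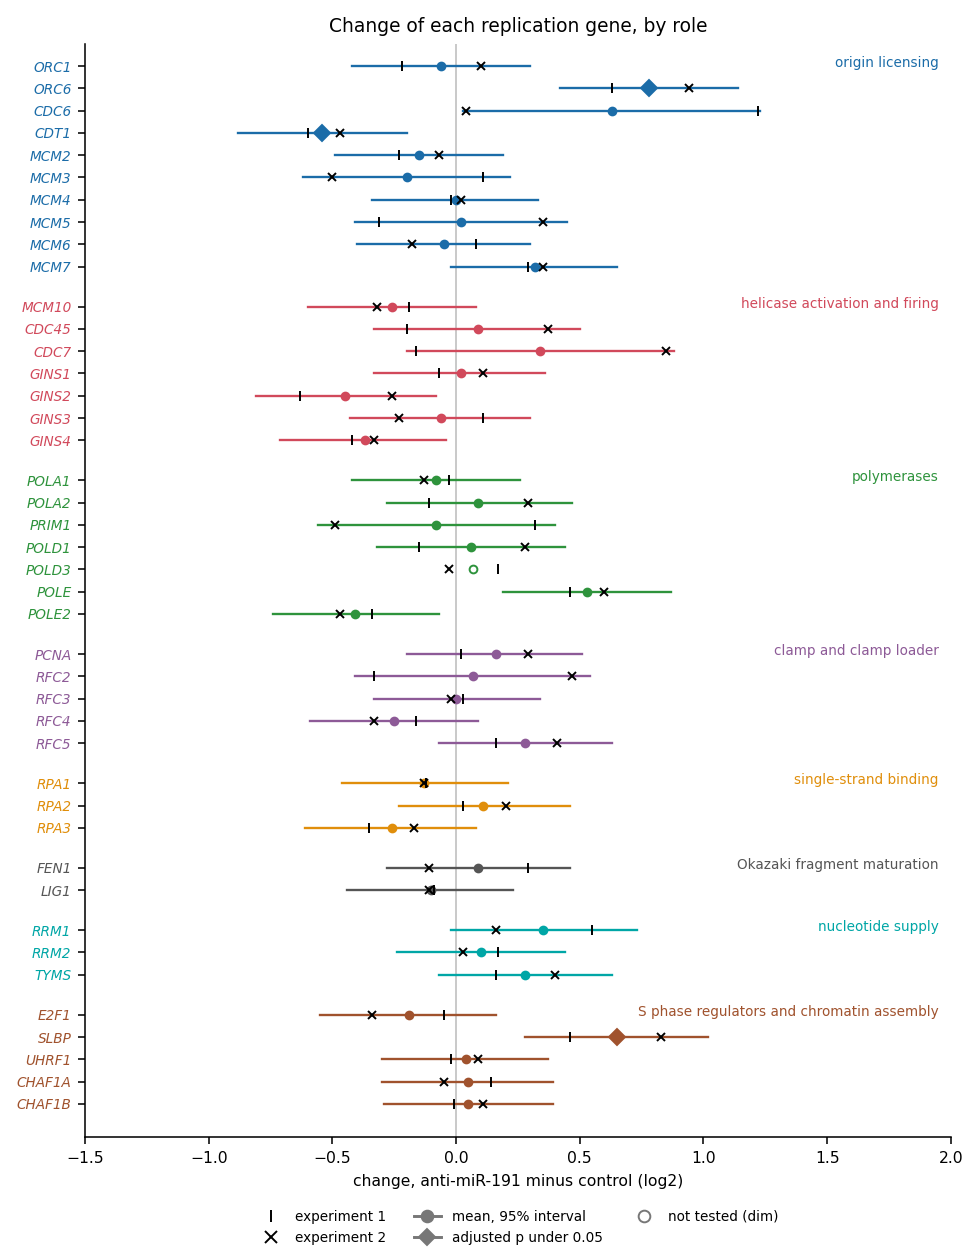
Change after anti-miR-191 (horizontal axis, log2) of each replication gene by role. Coloured points are means of both experiments with limma's 95% interval, bars and crosses the single experiments, diamonds the genes with an adjusted p under 0.05. Only ORC6 and SLBP on the right and CDT1 on the left are diamonds, and 33 of 41 intervals include 0.

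How large an unseen change could be is described here by limma's 95% intervals, whose width rests mostly on variance shared over genes. For 38 of the 41 genes (92.7%) the 95% interval lay within 1 log2 unit of 0, beside 87.6% of all genes tested. None of the 41 had a mean change of 2-fold, and 3 had one of at least 1.5-fold. The size of the change exceeded the gap between the control arrays for 19 of 41 genes (46.3%), beside 52.4% of all genes. Both treated arrays lay outside the range of the controls for 19 of 41 (46.3%), beside 53.2% of all genes. The median gap between the control arrays was 0.234 for the replication genes and 0.197 for all genes.

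The experiments gave the same sign for 23 of the 41 genes (56.1%), 11 higher and 12 lower, beside 69.6% of all genes. Opposite signs were seen for 18 (43.9%), beside 30.4%. A change of at least 1.5-fold the same way in both experiments was seen for 1 replication gene, ORC6 (2.44%), beside 8.67% of all genes. These counts describe genes, which are not independent replicates, so no test is attached.

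**Figure D4:**
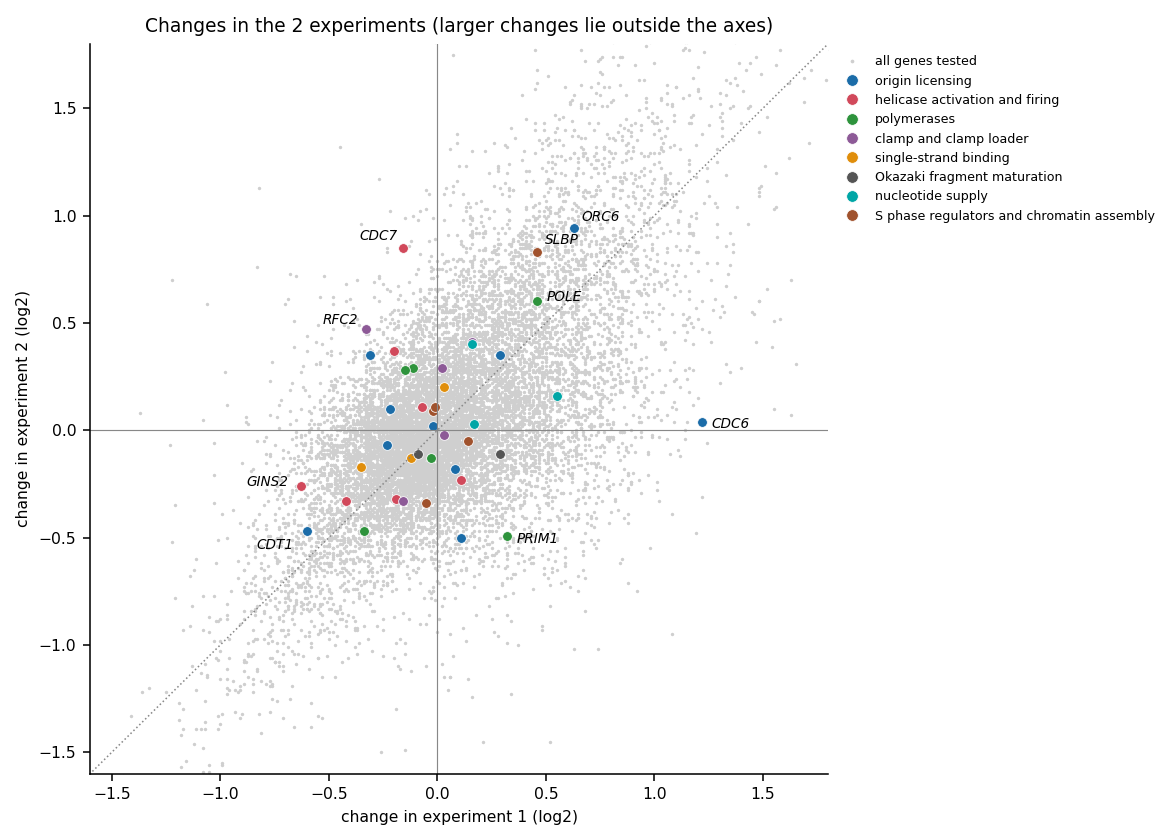
Change in experiment 1 (horizontal axis, log2) against change in experiment 2 (vertical axis, log2) for the 41 tested replication genes, coloured by role, over all 14147 genes in grey. The dotted line marks equal changes and genes with larger changes lie outside the axes. ORC6, SLBP and POLE lie on the positive side and CDT1 on the negative side in both experiments, and CDC6 stands apart in experiment 1 and CDC7 in experiment 2.

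Other genes of replication came from a list of 63 that excludes the members. The list was chosen with earlier results of these data known, so no conclusion is drawn from its share of calls. Of 57 tested 7 rose and 6 fell (22.8%, beside the 13.9% of all genes given above), with a median change of 0.05. In limma's fit without the block 4 of the 57 were called (7.02%), beside 3.91% of all genes. ORC2, another subunit of the origin recognition complex, read 6.76 and 7.06 after anti-miR-191 and 5.65 and 5.91 in controls and rose 2.19-fold (1.13 ± 0.14, limma's adjusted p = 0.00467 and 0.0333 without the block). Higher levels were also called for the cell cycle phosphatase CDC25A (2.19-fold), E2F6 (2.04-fold), CCNE1, encoding cyclin E1 (2.02-fold), E2F3 (1.96-fold), RRM2B, a second small subunit of ribonucleotide reductase (1.77-fold), and POLE3, a histone-fold subunit of polymerase epsilon (1.55-fold). CCNE1, CDC25A and E2F6 had larger changes in experiment 2 (1.40, 1.51 and 1.32) than in experiment 1 (0.63, 0.76 and 0.73).

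Of the 6 that fell, DTYMK had the largest change. DTYMK, thymidylate kinase, read 7.42 and 7.48 after anti-miR-191 and 8.25 and 8.60 in controls, a fall of 1.96-fold (limma's adjusted p = 0.00812 and 0.0401 without the block). TK1, thymidine kinase, fell by 0.63 ± 0.14. POLE4, the histone-fold partner of POLE3, fell by 0.92 ± 0.15, opposite in sign to POLE3. RNASEH2A, the catalytic subunit of ribonuclease H2, fell by 0.71 ± 0.14, while RNASEH2B, another subunit of that enzyme, had a change of 0.05 ± 0.15. ASF1B, a histone chaperone, fell by 0.62 ± 0.15. The remaining one, RNASEH2C, named like RNASEH2B after its values were seen, fell by 0.56 ± 0.14. Without the block ORC2, E2F3, DTYMK and POLE4 kept their call and the other 9 did not. Of 20 mitosis genes set beside these, 17 were tested and limma called none with the block, beside 13.9% of all genes. At an unadjusted p under 0.05 that fit had 2 of the 17, beside 28.1% of all genes. MKI67 had the largest change of the 17 (-0.54 ± 0.19, limma's adjusted p = 0.107). With so few genes, the count of calls does not show that mitosis genes were unchanged.

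**Figure D5:**
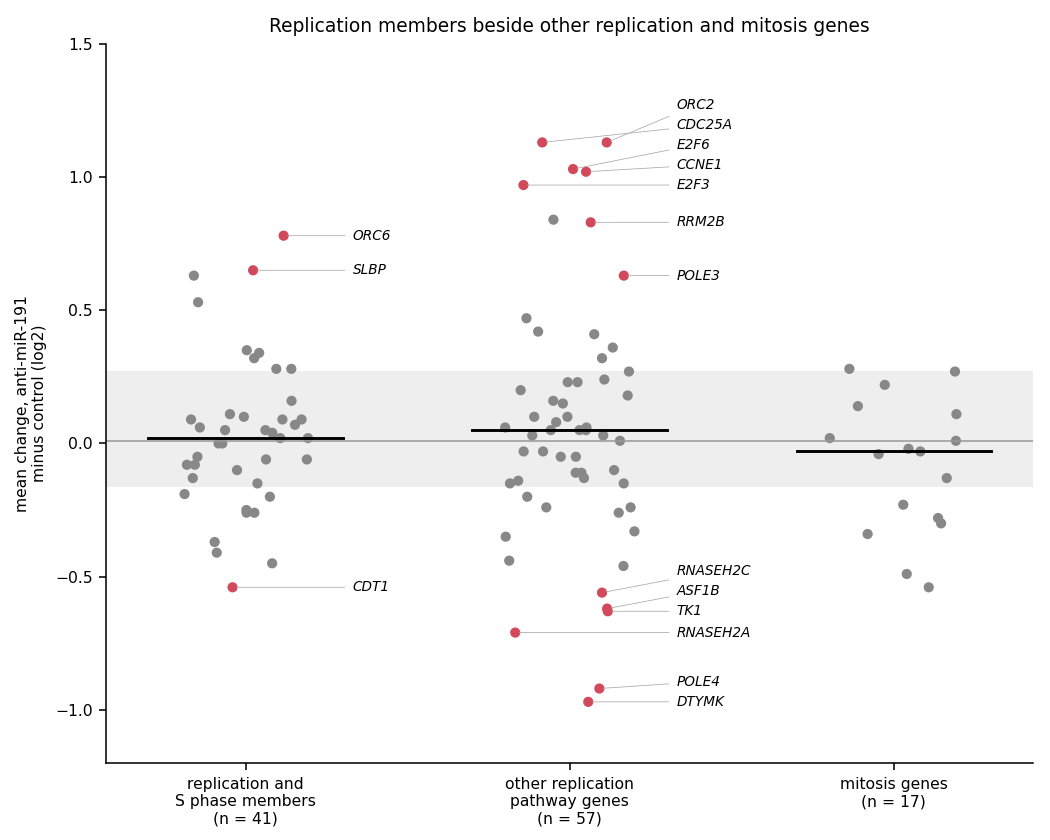
Mean change after anti-miR-191 (vertical axis, log2) of the 41 replication members, 57 other replication genes and 17 mitosis genes. Each point is a gene, red where limma's adjusted p was under 0.05, black bars are the medians of 0.02, 0.05 and -0.03, and the grey band and line are the middle 50% and the median of all genes tested. The red points number 3 of 41, 13 of 57 and 0 of 17, beside 13.9% of all genes tested.

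Array medians lay between 4.37 and 4.43, and the interquartile range of the treated arrays (3.38 and 3.43) was wider than that of the controls (3.18 and 3.24). Of 9 hepatocyte markers listed, 8 had a probe set with 1 gene symbol, and 7 read above every marker of other cell types on each array. All 8 had a lower mean after anti-miR-191, with 1 called, TTR, beside 13.9% of all genes tested. APOA1, TTR and SERPINA1 were lower in both experiments. ALB, AFP, APOB, FGB and TF were higher in experiment 1 (changes of 0.01 to 0.48) and lower in experiment 2 (-0.35 to -1.24). Of 11 markers of blood, endothelium, mesenchyme, squamous epithelium and neurons, control means ran from 2.62 for PTPRC to 6.02 for COL1A1. The log2 values of these markers summed to 46.13 and 45.87 on treated arrays and 46.43 and 45.69 on controls. A sum of log2 values is not a total of signal. The part of these markers in the results was not tested. Levels of different probe sets cannot be compared, so these markers set no background for the replication genes.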

How the data were processed

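Gene expression was measured in 4 HepG2 cultures on 1-colour Affymetrix arrays. The authors deposited 1 table of log2 RMA intensity values that, per the submitters' processing notes, came from RMA in Affymetrix Expression Console, a method of background correction, normalization between arrays and summary of each transcript cluster's probes. No version is stated. The log base was inferred from what RMA normally writes and from the values. The table has 33297 rows, of which GEO's platform annotation, dated 2016, gave 19460 a single gene symbol. All 42 Entrez identifiers matched RefSeq.

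The dimmest 33.3% of rows by mean (under 3.41) were left out, and the brightest row represented a gene, a choice that mattered for 1 member, UHRF1. The test was limma 3.58.1 (R 4.3.3; lmFit, eBayes), two-sided, with the experiment as a block, Benjamini-Hochberg adjustment over all 14147 genes and a threshold of 0.05. It has 1 residual and 6.60 prior degrees of freedom (2 and 4.32 without the block). The pairing comes from the series text and the numbered titles, and deviations of same-numbered arrays correlated at 0.335. The p-values and SE measure the spread of the arrays at hand, with each gene's variance drawn toward that of all genes tested. The members and lists were chosen with earlier results of these data known. Values on each array are given for called members, for the largest and smallest change in each role group and for E2F1, CDT1, SLBP, PCNA and MCM2. Of the other lists up to 12 called genes were named by rule, with values on each array only for ORC2 and DTYMK. MCM7, GINS4, CDC6, CDC7, POLE2, RFC2 and TYMS were named after their values were seen. The fits were tested on simulated data. Figures used matplotlib 3.10.9. Intensities have no counting depth, so the number of arrays limits the precision.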

Additional observations from a re-analysis of the deposited data

How the results depend on the processing

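With 2 arrays per group and 1 residual degree of freedom in the paired fit, calls near the threshold depend on the setting. Without the block, limma called 452 genes higher and 101 lower over all genes, 0 and 0 replication genes (5 of the 41 and 3048 of all genes had an unadjusted p under 0.05), and 2 and 2 of the other replication genes. In the other 7 alternatives with all arrays, ORC6 kept its call in every one, while SLBP lost it under quantile normalization and cyclic loess, which left 1 replication gene higher. CDT1 lost its call, leaving 0 lower, under median centring, with rows below the median level left out, with the mean of all rows of a gene and with an intensity trend in eBayes. After quantile normalization 881 genes were called higher, beside 1428. The cause of these losses was not tested.

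The median change of the replication members was -0.06 after quantile normalization. Under that setting the medians were -0.12 for origin licensing, -0.13 for helicase activation, -0.24 for single-strand binding, 0.26 for nucleotide supply and -0.06 for the S phase regulators. Under cyclic loess they were -0.06 for licensing, -0.18 for single-strand binding and 0.27 for nucleotide supply, and under median centring licensing stayed at -0.03. In single experiments the medians were -0.02 and 0.03 for all members, 0.03 and 0.03 for licensing, -0.19 and -0.23 for helicase activation, 0.02 and 0.29 for the clamp group, and 0.17 and 0.16 for nucleotide supply.

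Leaving out single arrays was run without the block, where the lone array of a group is assumed to vary like the others. Limma then called between 0 and 315 genes higher and between 0 and 24 lower. The count was 339 when the treated array of experiment 1 was omitted and 0 in each of the other 3 cases (1663 to 3178 genes at an unadjusted p under 0.05). Of the replication genes 0 were called, higher or lower, in all 4 cases (0 to 5 of the 41 at an unadjusted p under 0.05), and of the other replication genes 0 to 3 higher and 0 lower. No called replication gene changed direction in any setting.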
